A study of Rattus norvegicus with 4 samples.

Results

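Aquaporins are the gene family whose names start with AQP, and 5 of them were found among the 107 channel genes that the study listed for the rat choroid plexus, for its sorted epithelial cells or for the kidney proximal tubule: AQP1, AQP3, AQP4, AQP7 and AQP11. They are 5 of the 32883 gene IDs in the files, of which 2452 are paired with a name. The lists hold genes at or over 0.5 TPM (a transcript abundance scaled for transcript length and to the same total in each library) in at least 1 of the male choroid plexus, the sorted cells and the tubule. Membership therefore already used a value. Other aquaporins were not analysed here, because their IDs are not paired with a name in the tables used.

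All rats were 9-week-old Sprague Dawley animals with no treatment or altered gene, and each condition is 1 library made from a pool of animals. The groups are choroid plexus of 5 males, choroid plexus of 5 females, choroid plexus epithelial cells of 10 male rats, and kidney proximal tubules. The epithelial cells were digested with collagenase and then sorted by FACS with an antibody to NKCC1. The tubules came from 5 males and were collected by hand after enzymatic digestion. For the whole choroid plexus no digestion is described. With 1 library per group, no difference between libraries has a replicate check, no test was run, and the intervals given below (95%) cover counting error only. In bulk RNA, fewer cells of a type and less RNA per cell cannot be told apart.

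Aquaporins form pores in membranes that let water pass along an osmotic gradient. AQP1 and AQP4 are selective for water, AQP3 and AQP7 also carry glycerol and are called aquaglyceroporins, and AQP11 is a distant member found mainly in membranes inside the cell. In the choroid plexus AQP1 is known from the surface of the epithelium that faces the cerebrospinal fluid (CSF), and AQP4 is the water channel of astrocytes and ependyma. In the kidney AQP1 is known from the proximal tubule and the thin descending limb, AQP7 from the straight part of the proximal tubule, and AQP3 from the collecting duct.

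AQP1 held nearly all TPM of the listed aquaporins in the choroid plexus libraries, and AQP3 was detected only in the tubule library. The sequences shown are the 250 bases before the start of transcription of AQP1 and of AQP3. Both come from RefSeq on the build GRCr8, while the expression files use Rnor_6.0, and both are written on the strand of the gene. They lie at chr4:85812534-85812783 on the plus strand for AQP1 and at chr5:61040684-61040933 on the minus strand for AQP3. Capitals mark the motifs found among those searched on both strands.

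AQP1: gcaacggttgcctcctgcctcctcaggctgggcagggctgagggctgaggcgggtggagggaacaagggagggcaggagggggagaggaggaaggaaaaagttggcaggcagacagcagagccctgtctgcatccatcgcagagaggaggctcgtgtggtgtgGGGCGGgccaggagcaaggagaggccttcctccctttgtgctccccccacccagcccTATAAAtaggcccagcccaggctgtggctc
AQP3: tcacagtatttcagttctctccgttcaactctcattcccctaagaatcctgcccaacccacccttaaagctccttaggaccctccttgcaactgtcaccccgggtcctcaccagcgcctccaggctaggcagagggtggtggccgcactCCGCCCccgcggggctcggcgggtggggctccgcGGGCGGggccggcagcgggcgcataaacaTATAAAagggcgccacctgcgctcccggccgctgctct

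The letters TATAAA began 30 bases before the start in AQP1 and 38 bases before it in AQP3, and were found in 12.9% of 33469 windows of this length. The letters GGGCGG, shared by 30.5% of the windows, occurred once in AQP1 and on both strands in AQP3, where CCGCCC is the copy on the opposite strand. CCAAT (34.02% of the windows), TAATCC (6.34%) and CAAAGTCCA (0.338%) were in neither. None of these motifs overlapped another. Both windows had a GC content of 65.2%, but CpG pairs occurred at 0.195 of the number given by base composition in AQP1 and at 0.735 in AQP3. A match of letters describes the window and is not a binding site. No window was given for AQP7. RefSeq also gave 1 window for AQP11 and 2 for AQP4, with GC contents of 70.8% for AQP11 and of 44.8% and 51.6% for AQP4. Of these, TATAAA was in none.

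The libraries held between 23873318 (FACS) and 28324976 (male) expected counts. Of the tubule counts, 70.7% belonged to the 13 mitochondrially encoded genes, which left 7352952 for all other genes. The tubule is therefore compared after these genes were removed and TPM rescaled in both libraries. Of 1119 genes with 100 TPM or more in male choroid plexus, 311 were listed at 0 in the tubule, against 7 in the FACS library and 0 in the female library. The tissue labels were checked against markers. TTR, the transthyretin gene of the choroid plexus epithelium, had 260358 TPM in the male choroid plexus and 0.251 TPM in the tubule, both rescaled. Of 11 epithelial markers, 10 were past 2-fold lower in the tubule (71.0% of all genes), while PRLR, the prolactin receptor, had a log2 ratio of 0.42. In the FACS cells 3 of the 11 were higher than in the whole tissue (21.8% of all genes). Past 2-fold lower there were 5 (25.5% of all genes). Their median was -0.62, against -0.58 for all genes. In the tubule, 8 of 9 named proximal tubule genes were past 2-fold higher than in the male choroid plexus (12.1% of all genes). Among them was SLC34A1, the phosphate cotransporter, which was at 0 in all choroid plexus libraries.

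AQP1 (ENSRNOG00000011648) was the most abundant of the listed aquaporins in the choroid plexus libraries. It had 721 TPM in the male choroid plexus, from 41501 expected counts (interval 714 to 728 TPM). It had 667 TPM in the female choroid plexus, from 37763 expected counts (661 to 674 TPM). It had 687 TPM in the FACS epithelial cells, from 41793 expected counts (681 to 694 TPM). The levels of these 3 libraries lay close together, although their counting intervals did not overlap. In the proximal tubule AQP1 had 13.3 TPM as deposited and 47.7 TPM after rescaling, from 1167 expected counts (45.0 to 50.5 TPM rescaled), the lowest of the 4 libraries on every scale used.

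**Figure D1:**
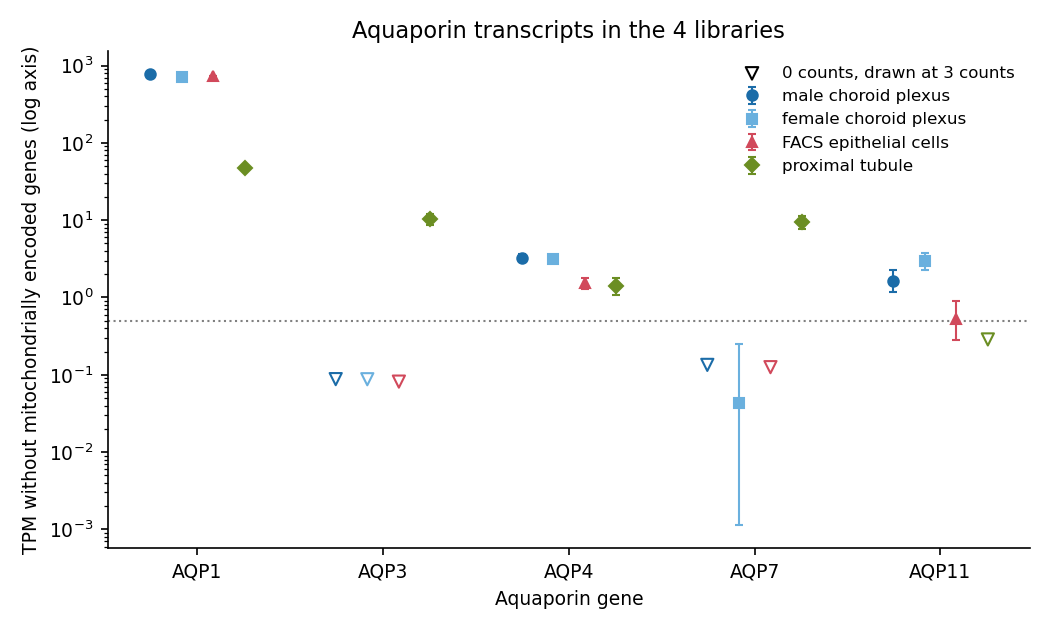
TPM of the 5 aquaporins without mitochondrially encoded genes on a log axis, by library, with error bars for the 95% counting interval. Open triangles mark genes with 0 counts, drawn at the level of 3 counts, and the dotted line is the cut-off of 0.5 TPM. AQP1 stands far above the other members in the 3 choroid plexus libraries, and AQP3 and AQP7 lie above the cut-off only in the tubule.

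Of the summed TPM of the listed aquaporins, AQP1 held 99.4% in male tissue, 99.2% in female tissue and 99.7% in the FACS cells. In the tubule its share was 69.3%. The other members summed to 4.50 TPM, 5.69 TPM and 1.93 TPM in the choroid plexus libraries and to 21.1 TPM in the tubule. Among all genes that reached the cut-off, AQP1 placed 127th of 13598 in the male, 134th of 13401 in the female and 106th of 13112 in the FACS library. In the tubule it placed 1310th of 6097 after rescaling.

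Among channels, AQP1 stood second to KCNJ13, an inwardly rectifying potassium channel, in both whole tissues. KCNJ13 reached 1372 TPM in the male library, against 1195 TPM in the female library, and KCNK1, a leak potassium channel, followed AQP1 at 158 and 139 TPM. No other channel overlapped AQP1 in its counting interval in these libraries. In the FACS cells AQP1 placed first and KCNJ13 second with 685 TPM (675 to 695 TPM). Their intervals overlapped, so the order of these neighbours was not resolved at this depth. The level of AQP1 relative to KCNJ13 was 0.525 in the male, 0.558 in the female and 1.003 in the FACS cells, while KCNJ13 was listed at 0 in the tubule. AQP1 held 23.5% of the summed TPM of the channels in the male, 24.6% in the female, 33.3% in the FACS cells and 9.79% in the tubule. In the tubule it placed 3rd, below KCNJ16 (236 TPM) and KCNJ1 (89.3 TPM), and above TRPV1 (15.1 TPM).

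**Figure D2:**
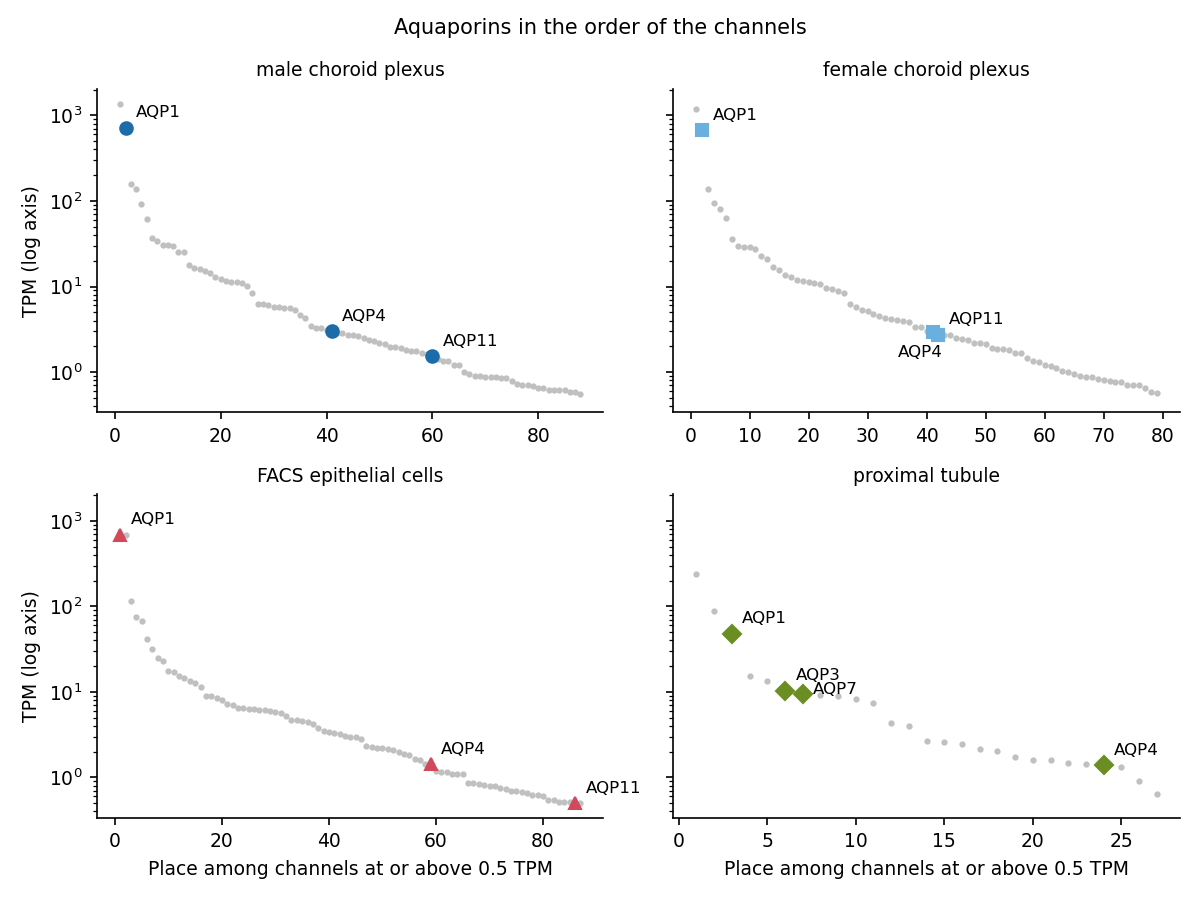
TPM of each channel at or above 0.5 TPM on a log axis against its place among the channels, by library, with aquaporins in colour and other channels in grey. The female library uses the male list, and the tubule values are rescaled without mitochondrially encoded genes. AQP1 is second in both tissues, first in the FACS cells and 3rd in the tubule, while AQP4 and AQP11 lie in the flat lower part of the curves.

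The FACS cells were compared with the whole tissue to see what the epithelium itself transcribes. Because the FACS cells were also digested and sorted, cell type and handling cannot be told apart in this pair. AQP1 kept nearly the same TPM, with a ratio of FACS to male of 0.954 (0.941 to 0.967) and a log2 ratio of -0.07, where all log2 ratios are of TPM + 1. Over the 14024 genes that reached the cut-off in 1 or both of these libraries the median was -0.58, and AQP1 lay 0.51 above it, higher than 75.5% of them. On this scale 4.61% of the genes were past 2-fold higher in the FACS cells and 25.5% past 2-fold lower, and none of the 3 aquaporins detected there was past 2-fold in either direction with the pseudocount of 1. With a pseudocount of 0.1 the log2 ratios of AQP4 (-1.01) and AQP11 (-1.43) were past 2-fold lower, and with 0.5 that of AQP11 (-1.01) was. The direction for AQP1 depended on the scaling. Per 1000000 expected counts AQP1 had 1465 in the male and 1751 in the FACS library, a log2 ratio of 0.26, and without the 10 highest genes of each library the log2 ratio of TPM was 0.34.

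Red cells, which also carry AQP1, and endothelium are other cells that the tissue pieces could hold. The 3 of 8 red cell genes with a name (HBB, HBA-A2 and SLC4A1) summed to 3064 TPM in the male, 1502 TPM in the female and 681 TPM in the FACS library, a ratio of FACS to male of 0.222. The part of red cells in the level of AQP1 was not tested. The 4 of 9 endothelial genes with a name (KDR, FLT1, TEK and TIE1) summed to 65.9 TPM in the male, 53.9 TPM in the female and 76.1 TPM in the FACS library. The endothelial sum was thus higher in the FACS cells than in the whole tissue, at a ratio of FACS to male of 1.16. Of these 4 genes 3 were higher, while KDR had a ratio of 0.923. Summed in the same way, the 11 epithelial markers had a ratio of 1.57. Most of their sum was TTR (ratio 1.63), and 3 of the 11 were higher. The part of endothelium in the level of AQP1 was not tested.

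Female and male choroid plexus had similar AQP1 levels. The ratio of female to male was 0.926 (0.913 to 0.939) and the log2 ratio -0.11, close to the median of -0.16 over 13869 genes. Of these genes, 0.440% were past 2-fold higher and 0.959% past 2-fold lower, and no aquaporin was among them. Per 1000000 expected counts the direction of AQP1 turned, with 1488 in the female against 1465 in the male and a log2 ratio of 0.022. Relative to the median of all genes it was 0.045. Sex and library cannot be told apart in this pair.

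The kidney proximal tubule, another epithelium that moves fluid of nearly plasma osmolality, was compared with the choroid plexus. Rescaled, AQP1 had 787 TPM in the male choroid plexus and 47.7 TPM in the tubule, 16.5-fold lower (15.6 to 17.5). The log2 ratio was -4.02, against a median of -2.27 over 14227 genes, and 23.1% of the genes had a lower one. Past 2-fold lower in the tubule were 71.0% of all genes and past 2-fold higher 12.1%. AQP1 is thus 1 of many genes past 2-fold lower in this library.

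**Figure D3:**
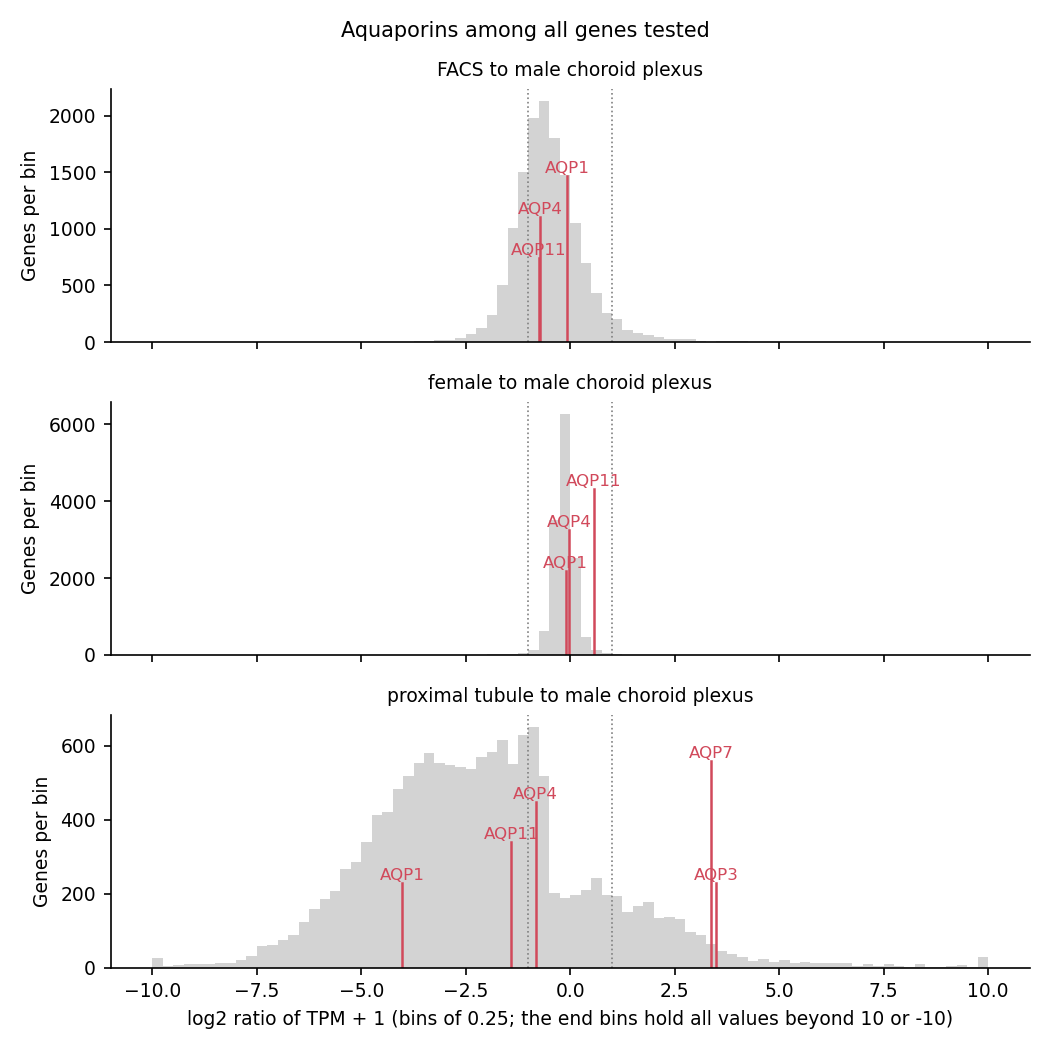
Number of genes per bin of the log2 ratio of TPM + 1 in the 3 comparisons with the male choroid plexus (grey bars), with aquaporins that reached the cut-off in 1 or both libraries marked by red lines, whose heights carry no value. Dotted lines mark 2-fold. In the tubule AQP3 (3.50) and AQP7 (3.38) lie to the right and AQP1 (-4.02) to the left, while in the female AQP11 (0.57) is farthest from the centre.

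AQP1 was set beside genes known from CSF secretion. Of 15 such genes 14 have a name, and in FACS to male their median log2 ratio was -0.36, against -0.58 for all genes. Of the 14, 3 were higher and 4 past 2-fold lower, near the shares of all genes (21.8% higher and 25.5% past 2-fold lower). Above AQP1 were SLC12A4, a potassium chloride cotransporter (0.25), CLCN2, a chloride channel (0.03), and SLC4A2, an anion exchanger (0.01). The other 11 lay below it. Past 2-fold lower were the bicarbonate transporters SLC4A10 (-1.58) and SLC4A5 (-1.49), the carbonic anhydrase CA12 (-1.34) and KCNJ13 (-1.001). SLC12A2, which encodes the NKCC1 used for the sort, had -0.83. Per SLC4A5 transcript, AQP1 was at 0.818 in the male, 0.937 in the female and 2.19 in the FACS cells. Per SLC4A2 transcript, it was at 1.13 in both tissues and 1.07 in the FACS cells. The level of AQP1 relative to SLC4A5 was thus highest in the FACS cells, while that relative to SLC4A2 stayed within a narrow range.

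**Figure D4:**
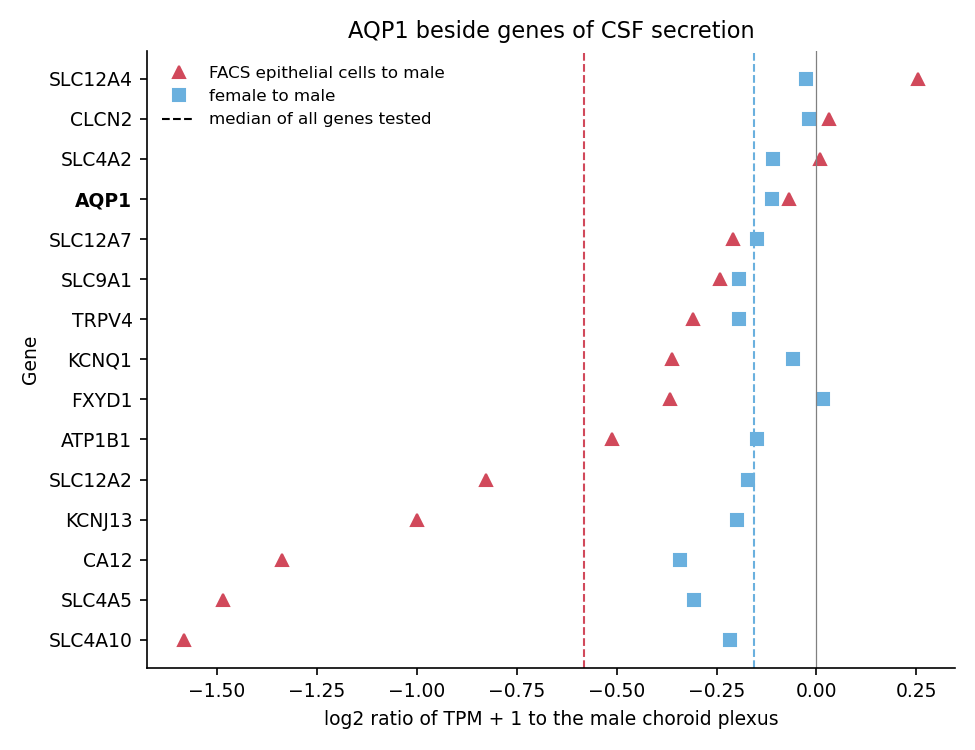
Log2 ratio of TPM + 1 to the male choroid plexus for AQP1 and 14 genes of CSF secretion, in the FACS epithelial cells (triangles) and the female choroid plexus (squares), with the medians of all genes tested as dashed lines. AQP1 (-0.07 in the FACS cells) lies above 11 of the 14 genes, and the female values keep within a narrow range.

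In female to male, the same list had a median of -0.16, the same as all genes to 2 decimals, and 5 of its 14 genes lay above AQP1. In the tubule all 14 were past 2-fold lower, against 71.0% of all genes. There 11 were listed at 0, as were 58.3% of the genes that reached the cut-off in male tissue. The 3 with counts there were ATP1B1, the beta subunit of the sodium pump (-4.09), CA12 (-4.42) and SLC12A2 (-5.51), each below AQP1 (-4.02). Per ATP1B1 transcript, AQP1 was at 0.464 in the male, 0.477 in the female, 0.631 in the FACS cells and 0.483 in the tubule.

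The pattern of AQP1 over the 3 log2 ratios to the male was matched to 143 other channels, transporters and pumps at or above 10 TPM in the male. The nearest by Euclidean distance were KCNS1 (0.255), SLC44A4 (0.272), SLC39A6 (0.289), SLC35F5 (0.309) and ORAI3 (0.325). All 5 were listed at 0 in the tubule and had 14.0 to 18.2 TPM in the male, so the pseudocount of 1 sets their tubule ratio. By a rule added after these values were seen, which kept only the 51 candidates at or above 0.5 TPM in the tubule, the nearest were SLC11A2 (0.442), an iron and divalent metal transporter, and ATP1B1 (0.450). These distances rest on 4 libraries.

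AQP4 (ENSRNOG00000016043) was transcribed at a low level in all libraries. It had 2.98 TPM in the male, from 347 expected counts (2.68 to 3.32 TPM). The female library had 2.91 TPM from 323 counts (2.60 to 3.25 TPM). The FACS cells had 1.43 TPM from 162 counts (1.22 to 1.67 TPM). The tubule had 0.390 TPM as deposited, under the cut-off, and 1.40 TPM rescaled from 67 counts (1.08 to 1.78 TPM). Male and female overlapped in their intervals, and the FACS cells lay below both. The order of FACS cells and tubule was not resolved, with a ratio of tubule to FACS of 0.918 (0.680 to 1.23), both rescaled.

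AQP4 in the FACS cells was 0.480 of its male TPM (0.396 to 0.580). Its log2 ratio of TPM + 1, which understates the change of low genes, was -0.71 and lay 0.13 below the median of all genes, with 41.9% of the genes lower. In the female the ratio was 0.977 (0.837 to 1.14), and in the tubule it was 0.430 (0.326 to 0.560). AQP4 placed 41st of 88 channels in the male, where 11 other channels overlapped its interval between places 37 and 51. It placed 41st of 79 in the female, 59th of 87 in the FACS cells and 24th of 27 in the tubule.

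The effective length that RSEM gave to AQP4, which weights a gene's transcripts by their abundance, differed between libraries once each library's common offset was removed. It was 4745 bases in the male, 4607 in the female, 4364 in the FACS cells and 4581 in the tubule. For the other 4 members it moved by no more than 1.94 bases. The length of AQP4 thus moved with the library, and its TPM per count with it.

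Genes of astrocytes and ependyma, where AQP4 is known, were read beside these values. Of 11 such genes 6 have a name, and in FACS to male their median log2 ratio was -0.87 against -0.58 for all genes. On the scale of TPM + 1, 0 of 6 were higher (21.8% of all genes) and 0 of 6 past 2-fold lower (25.5% of all genes), although this scale understates low genes such as SLC1A3, a glutamate transporter, whose TPM in the FACS cells was 0.376 of the male value. Their sum went from 385 TPM in the male to 396 TPM in the female and 196 TPM in the FACS cells, where the potassium channel KCNJ10 and the glutamate transporter SLC1A2 were at 0. Most of that sum was NDRG2, with 373 TPM in male tissue and 190 TPM in the FACS cells. In the male, KCNJ10 (0.780 TPM), SLC1A2 (0.870 TPM) and the connexin GJB6 (0.960 TPM) were themselves near the cut-off. With the pseudocount of 1, none of these could be past 2-fold lower. The part of these cells in the AQP4 level was not tested.

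Of 10 genes known for work with aquaporins, 3 have a name. DAG1, the dystroglycan that holds AQP4 at glial endfeet, had 93.6 TPM in the male, 79.1 TPM in the female and 60.5 TPM in the FACS cells as deposited. Rescaled, it had 1.08 TPM in the tubule against 102 TPM in male tissue. TRPV4, a calcium-permeable channel gated by cell swelling, had 92.1, 80.3 and 74.1 TPM in the male, female and FACS libraries and was listed at 0 in the tubule. KCNJ10 was near the cut-off in the 2 tissues (0.780 and 0.870 TPM) and was at 0 in the other libraries. In FACS to male the 3 genes had a median log2 ratio of -0.62 with 0 past 2-fold, close to that of all genes. In the tubule, 2 of 3, DAG1 and TRPV4, were past 2-fold lower, near the 71.0% of all genes. KCNJ10 had under 1 TPM in male tissue, so with the pseudocount of 1 it could not be past 2-fold lower in either comparison.

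AQP3 (ENSRNOG00000009797), an aquaglyceroporin, had 0 counts in the male, the female and the FACS libraries. At 3 counts its TPM there would have been 0.0805, 0.0821 and 0.0766. The tubule had 162 expected counts, 2.87 TPM as deposited and 10.3 TPM rescaled (8.77 to 12.0 TPM). AQP3 was thus detected in the tubule library only. Its TPM was 117 times the floor of 3 counts in the male library, 0.0878 TPM when rescaled. That value leaves out the counting error of the tubule counts. Its log2 ratio was 3.50. AQP3 became a member only through the tubule list, which needs 0.5 TPM there. The direction of this difference was therefore set by the selection.

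AQP7 (ENSRNOG00000009686), the other aquaglyceroporin, had 0 counts in the male, 1 in the female (0.0400 TPM) and 0 in the FACS library. The tubule had 96 expected counts, 2.62 TPM as deposited and 9.40 TPM rescaled (7.61 to 11.5 TPM). AQP7 was thus at or under the floor of 3 counts in every choroid plexus library. Its TPM in the tubule was 70.0 times the male floor of 0.134 TPM when rescaled, which leaves out the counting error of the tubule counts. Its log2 ratio was 3.38. AQP7 too became a member only through the tubule list, so the direction of this difference was set by the selection. In the RefSeq annotation AQP3 and AQP7 lie on chromosome 5 with 1 pseudogene and 0 protein-coding genes between them.

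The intervals of AQP3 and AQP7 in the tubule overlapped, so their places, 6th and 7th of 27 channels, were not resolved. Around them stood GJB2, a connexin (13.4 TPM), above AQP3 and TRPM7, a cation channel with a kinase domain (9.15 TPM), below AQP7. AQP1 was well above both.

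Markers of kidney segments had the following levels. SLC7A13, a transporter of the straight part of the proximal tubule, had 7371 TPM in the tubule, and SLC5A2, the glucose cotransporter of the early part, had 21.6 TPM. Of 15 genes of segments past the proximal tubule 8 have a name, and their sum was 114 TPM in the tubule against 2.60 TPM in the male choroid plexus. Most of it was KCNJ1 (89.3 TPM), a potassium channel, and SLC12A1 (17.2 TPM), the sodium potassium chloride cotransporter of the thick ascending limb. SCNN1A, a sodium channel subunit of the collecting duct, was at 0. A 0 says little in this library, where 311 of 1119 genes with 100 TPM or more in male choroid plexus were at 0. SCNN1B, SCNN1G and AQP2, on the same list, were not paired with a name. Both KCNJ1 and SLC12A1 exceeded AQP3 in TPM. The part of other segments in AQP3, AQP7 or AQP1 was not tested.

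AQP11 (ENSRNOG00000013358) had the lowest level of the 3 aquaporins at the cut-off in the choroid plexus libraries, although its interval overlapped that of AQP4 in the female. The male had 1.52 TPM from 38 expected counts (1.08 to 2.09 TPM). The female had 2.74 TPM from 67 counts (2.12 to 3.48 TPM). The FACS cells had 0.5 TPM from 13 counts (0.265 to 0.852 TPM), an interval that spans the cut-off, so whether AQP11 was transcribed there was not resolved at this depth. In the tubule AQP11 was listed at 0, where 3 counts would have been 0.287 TPM rescaled. Of the genes that reached the cut-off in male tissue, 58.3% were listed at 0 there, and 311 of the 1119 with 100 TPM or more. The level at 3 counts covers counting error only, so it sets no limit on AQP11 in tubule cells. As deposited, the 3 intervals of the choroid plexus libraries did not overlap, and the female was highest. Without mitochondrially encoded genes, the male interval (1.18 to 2.28 TPM) overlapped the female interval (2.26 to 3.71 TPM).

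The ratio of female to male AQP11 was 1.80 (1.19 to 2.76), and the log2 ratio of 0.57 was above that of 98.6% of all genes but short of 2-fold. The ratio of FACS to male was 0.329 (0.161 to 0.631), with a log2 ratio of -0.75, and that of FACS to female was 0.182 (0.0924 to 0.334). These values rest on 13 to 67 counts. AQP11 placed 60th of 88 channels in the male, 42nd of 79 in the female, directly after AQP4, and 86th of 87 in the FACS cells. In the male, 26 other channels overlapped its interval, and in the FACS cells 24.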

How the data were processed

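RNA of 4 pooled rat libraries, 1 per condition, was sequenced as paired-end reads of 150 bases. The authors aligned the reads to Rnor_6.0 (Ensembl 103) with STAR 2.7.2a, and ran RSEM 1.3.3. They deposited for each gene an expected count (an estimate that need not be whole), a TPM that sums to 1000000 per library, and an effective length in bases, a value of another kind. Strandedness is not given in the sources used here, and the program settings, for which the methods point to a repository, were not used here, so reads of antisense or near-identical genes could have been split between them. The deposited FPKM was not used.

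From these files, TPM ratios, log2 ratios with a pseudocount of 1 TPM, places and sums were computed in Python (3.11.15) with the packages scipy (1.17.1), pandas (2.3.3) and numpy (2.4.6), and matplotlib (3.10.9) drew the figures. A gene was transcribed at or above 0.5 TPM, and ratios were taken over genes at the cut-off in either library. Expected counts were given exact Poisson intervals, and ratios exact binomial ones, at 95%, with a floor of 3 counts. These cover counting error only. For the tubule, the 13 mitochondrially encoded genes were removed and TPM rescaled, whereas the methods describe a reference that lacked them. No test was run with 1 library per group. The ratios, their intervals and the median were tested on simulated counts with known folds, and the other steps were not. No fold was simulated in genes with few counts.

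Names come from the supplementary lists of the paper, and 0 IDs matched the RefSeq table. The genes named are all members, the 5 genes most like AQP1, lists for CSF secretion, for work with aquaporins and for cell types, and the highest and neighbouring channels. From the CSF secretion list, 1 gene is not reported here. Members and lists were chosen with earlier results of these data known. Lists are described by counts and medians. The alternatives were other pseudocounts, cut-offs, scalings and libraries.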

Additional observations from a re-analysis of the deposited data

How the results depend on the processing

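The level of AQP1 in the tubule stayed below that of the male choroid plexus under all 7 alternatives tried, with log2 ratios of -3.28 per 1000000 expected counts, -4.29 without the 10 highest genes of each library, -1.75 relative to the median of all genes, -5.66 with mitochondrially encoded genes kept and -3.87 against the female, and pseudocounts of 0.1 and 0.5 left it within counting error. The FACS to male value (-0.07) was not stable in sign: it was 0.26 per 1000000 expected counts, 0.34 without the 10 highest genes, 0.51 relative to the median, -0.10 without mitochondrially encoded genes and 0.042 against the female. The female to male value (-0.11) was 0.022, -0.012, 0.045 and -0.14 under the first 4 of these. The 10 highest genes held 35.6% of the male, 39.9% of the female and 51.5% of the FACS TPM. At a cut-off of 5 TPM, 1 aquaporin in place of 3 was transcribed in each choroid plexus library. The other cut-offs gave 3 in both tissues and 2 to 3 in the FACS cells. In the tubule the number was 4, and 3 at 5 TPM, and keeping the mitochondrially encoded genes, an alternative chosen after seeing the data, gave 3, without AQP4. The place of AQP1 was the same in the joined channel lists. For AQP3, AQP4, AQP7 and AQP11, 14 of 24 alternatives stayed within counting error and 10 moved, and 0 past 2-fold changed sign. Of those that moved, 9 were for genes at 0 in a library, whose ratio the pseudocount sets. No counting error was computed for these 9, so any change counted as moved. In FACS to male, AQP4 at a pseudocount of 0.1 and AQP11 at 0.1 and 0.5 crossed 2-fold. No paired analysis was possible because each group has 1 library. The AQP11 ratios between choroid plexus libraries rest on 13 to 67 counts.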
